A study of Mus musculus with 10 samples.

Results

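Collagen genes were taken as all protein-coding genes of the RPKM table whose mouse symbol reads, in full, *Col*, a number, *a* and a number, which gave 44 of 45232 entries. RPKM is a read count scaled by gene length and by the number of mapped reads. By class these were 11 chains of fibrillar collagens, 6 of the basement membrane type IV, 6 of the beaded filament type VI, 9 FACIT chains, which sit on the surface of fibrils, 4 transmembrane chains, 3 short chains, 2 multiplexins and 3 others. The cells were serum-starved NIH3T3 mouse fibroblasts, held for 60 h in 0% serum, from 2 single-cell clones in which *Lin37* had been mutated with CRISPR/Cas9. Clone 411-27 carries InDels at the border of intron 3 and exon 4 (the exon 4 clone), and clone 632-2 carries them at the border of intron 5 and exon 6 (the exon 6 clone). Each clone carried a pRTS episome that expressed luciferase (called KO) or wild-type Lin37 (called rescue) under doxycycline, and GFP-positive cells were sorted. Both groups of a clone thus shared the *Lin37* edit, the episome, the drug, the sort and the starvation, and no proliferating or unedited cells were among the samples analysed here. Since either edit is represented by 1 clone, clone, edit and passage cannot be told apart.

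The 10 libraries comprised 2 KO and 2 rescue libraries of the exon 4 clone and 3 KO and 3 rescue libraries of the exon 6 clone. In the exon 6 clone, sample 3 was a technical replicate of sample 2, and both were averaged, which left 8 replicates, 2 in each group of each clone. Values below are RPKM rescaled to a common median ratio over 8523 genes, with scale factors between 0.324 and 2.70. In both clones the factor of every KO library was larger than that of the same-numbered rescue library. *Lin37* was at 0.268 to 0.417 RPKM in the KO libraries and at 2.12 to 5.11 RPKM in the rescue libraries, without overlap, as the labels have it. Among the rescue libraries it was lower in the exon 4 clone (2.54 and 2.12 RPKM) than in the exon 6 clone (4.92, 5.11 and 4.41 RPKM). The depth of the libraries is unknown, because RPKM values carry no read totals, and the number of entries listed at 0 ranged from 7920 to 22034. Of the fibroblast markers, 7 of 8 reached 0.1 RPKM, and their summed level was 293 to 437 RPKM in all replicates. The markers of endothelium and of skeletal muscle each averaged under 0.1 RPKM over the replicates, with summed levels up to 0.399 and 0.178 RPKM. Of the leukocyte and bone markers, 2 of 4 and 3 of 4 were under 0.1 RPKM, with summed levels of 0.747 to 1.58 and 1.34 to 2.31 RPKM. In bulk RNA, fewer cells of a type and less RNA per cell cannot be told apart.

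Collagens are trimers of alpha chains wound into a triple helix, and each chain is encoded by its own gene. Fibrillar types I, III and V build the fibres of connective tissue, and fibroblasts are their main source. Type IV forms the sheet-like network of basement membranes, and type VI forms beaded filaments around cells. Chains are hydroxylated and folded in the endoplasmic reticulum, trimmed of their propeptides outside the cell and then cross-linked. Lin37 is a subunit of the MuvB core, which in quiescent cells is part of the DREAM complex that represses cell cycle genes through CHR and E2F (CDE) elements of their promoters.

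Because the genotype compared was that of a DREAM subunit, the promoter windows of collagen genes were searched for these letters. RefSeq windows of 250 bases before to 50 bases after the start (GRCm38.p6) were at hand for 35 of the 44 genes, as 38 windows, and 9 genes, *Col1a1* and *Col5a2* among them, had none. The CHR, searched as TTTGAA and as TTCGAA, was found on either strand in 8 of 38 windows (21.1%), beside 19.2% of all 32851 windows. The E2F element, searched as TTCCCGC, also as TTGGCGC, also as TTCGCGC and also as TTGCCGC, was found in 4 of 38 (10.5%), beside 9.57% of all. CCAAT was in 34.2% of the collagen windows and in 37.4% of all, and TATAAA in 13.2% and 13.6%. Letters of these motifs did not overlap one another in the 4 windows printed here. *Col4a1* and *Col4a2*, the partner chains of type IV, lie head to head on chromosome 8 and overlap by 22 exon bases. Their windows, on opposite strands, share 78 bases, and are shown because both hold the same TTGGCGC, at chr8:11312781-11312787, 24 bases before the *Col4a2* start and 39 bases after the *Col4a1* start. Capitals mark the E2F letters and CCAAT, or their reverse complement, which reads GCGCCAA for the former and ATTGG for the latter. The *Col4a1* window is chr8:11312777-11313076 on the minus strand and that of *Col4a2* is chr8:11312555-11312854 on the plus strand.
Col4a1: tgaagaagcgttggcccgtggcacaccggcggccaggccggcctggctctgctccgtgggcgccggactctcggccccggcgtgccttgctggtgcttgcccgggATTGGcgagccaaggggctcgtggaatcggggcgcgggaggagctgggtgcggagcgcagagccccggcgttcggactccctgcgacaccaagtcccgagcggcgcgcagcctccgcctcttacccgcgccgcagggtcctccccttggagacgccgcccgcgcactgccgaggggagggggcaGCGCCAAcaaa
Col4a2: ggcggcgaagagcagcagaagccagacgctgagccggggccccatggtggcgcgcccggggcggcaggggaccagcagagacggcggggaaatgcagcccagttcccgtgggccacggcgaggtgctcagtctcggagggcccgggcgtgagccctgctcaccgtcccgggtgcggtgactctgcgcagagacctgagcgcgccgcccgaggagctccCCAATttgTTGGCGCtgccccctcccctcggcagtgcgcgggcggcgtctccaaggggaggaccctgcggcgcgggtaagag

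The windows of *Col1a2* (chr6:4505368-4505667, plus strand) and *Col10a1* (chr10:34389731-34390030, plus strand) are shown because both genes differed between the clones. Capitals mark CCAAT or its reverse complement in *Col1a2* and TATAAA in *Col10a1*, where it begins 32 bases before the start. Neither window held the CHR or E2F letters.
Col1a2: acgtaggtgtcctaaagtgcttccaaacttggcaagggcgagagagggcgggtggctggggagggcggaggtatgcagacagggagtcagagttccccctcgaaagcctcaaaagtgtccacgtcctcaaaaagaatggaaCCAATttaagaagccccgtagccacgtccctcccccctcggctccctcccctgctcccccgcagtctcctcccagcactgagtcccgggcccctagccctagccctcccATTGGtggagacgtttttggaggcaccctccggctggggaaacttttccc
Col10a1: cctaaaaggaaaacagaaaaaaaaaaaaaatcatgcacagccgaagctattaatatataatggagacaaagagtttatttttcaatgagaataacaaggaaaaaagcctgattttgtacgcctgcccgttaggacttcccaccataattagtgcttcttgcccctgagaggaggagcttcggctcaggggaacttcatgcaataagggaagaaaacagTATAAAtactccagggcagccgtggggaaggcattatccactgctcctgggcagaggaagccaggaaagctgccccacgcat

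Among genes that differed between the clones, *Col6a2* was the member with CHR letters, in the farther upstream of its 2 windows, 196 bases before the start. A match of letters is a description, and no binding was measured.

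Of the 44 collagen genes, 18 averaged at least 1 RPKM across the 8 replicates, 3 lay between 0.1 and 1 RPKM, and 23 lay under 0.1 RPKM. Those of at least 1 RPKM were 6 of 11 fibrillar, 4 of 6 basement membrane, 3 of 6 beaded filament and 3 of 9 FACIT chains, 1 short chain and 1 multiplexin. None of the transmembrane chains and none of the anchoring fibril group reached 0.1 RPKM. Means spanned 191 RPKM for *Col1a1* to 0.0111 RPKM for *Col23a1*.

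Type I led the order. *Col1a1* (chr11:94936224-94953042), the alpha 1 chain of type I, ranked 27 among protein-coding genes, and *Col1a2* (chr6:4504814-4541544), its partner, ranked 39 at a mean of 104 RPKM. *Col1a1* stood above *Col1a2*, *Col1a2* above *Col6a1*, and *Col6a1* above *Col3a1* in 8 of 8 replicates. Below them the order was less clear: *Col4a1* (17.1 RPKM) exceeded *Col16a1* (15.3 RPKM) in 5 of 8 replicates, so this pair did not differ beyond its spread. *Col16a1* exceeded *Col5a2* (13.3 RPKM) in 4 of 8, and this order followed the clone. *Col16a1* was above *Col5a2* in the exon 4 clone (13.0 to 20.6 against 5.98 to 9.42 RPKM). In the exon 6 clone it was below (12.8 to 14.9 against 17.4 to 20.8 RPKM). *Col4a2* (12.8 RPKM) stood above *Col6a2* (8.69 RPKM) in 8 of 8.

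**Figure D1:**
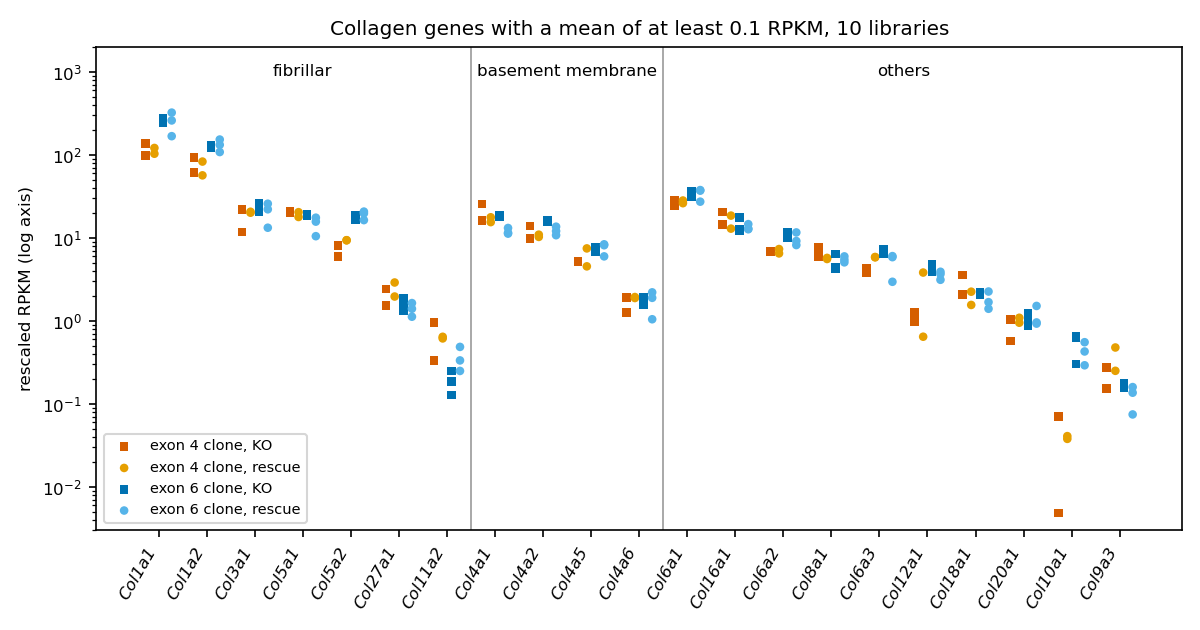
Rescaled RPKM on a log axis of the 21 collagen genes that averaged at least 0.1 RPKM, by class; each point is 1 of 10 libraries, squares are KO and circles rescue, orange shades the exon 4 clone and blue shades the exon 6 clone. *Col1a1*, *Col1a2*, *Col5a2*, *Col6a2* and *Col10a1* were lower in every exon 4 library than in every exon 6 library, while KO and rescue points intermix.

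Of the summed collagen RPKM, fibrillar chains made up 74.4% ± 5.74 (SD, n = 8), basement membrane chains 8.85% ± 2.35 and all other classes 16.8% ± 3.59. Type I alone made up 61.9% ± 8.06. The fibrillar share was 73.9% ± 5.70 in KO and 74.8% ± 6.61 in rescue (n = 4 each). Between clones it was 69.2% ± 2.00 (exon 4) and 79.5% ± 1.62 (exon 6; n = 4 each), with ranges of 67.3 to 71.1% and 77.9 to 81.8%. The basement membrane share was higher in the exon 4 clone, at 10.9% ± 0.922 against 6.82% ± 0.963. A higher share is not a higher level: the 4 type IV chains tested had a median log2 difference (exon 4 minus exon 6) of -0.19. Of these, 1 was positive and 3 were negative, with 0 called. The summed collagen level itself was 345 ± 47.1 and 577 ± 73.2 RPKM in these clones. These shares were not tested, since they sum genes that were also tested singly.

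**Figure D2:**
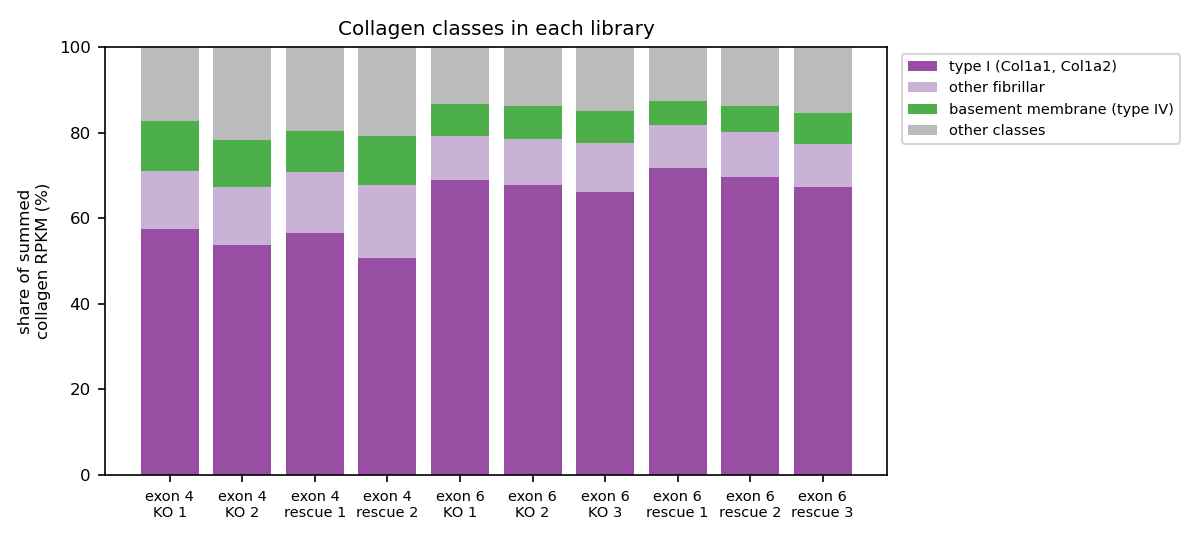
Share of the summed collagen RPKM by class in each of the 10 libraries; bars are stacked to 100%. Type I made up 50.8 to 57.5% in the 4 exon 4 libraries and 66.2 to 71.8% in the 6 exon 6 libraries.

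The question of the study was what loss of Lin37 does to gene expression in quiescent cells, and for the collagen genes no change was called. In the limma fit over both clones, 0 of the 21 collagen genes tested differed between KO and rescue at an adjusted p under 0.05, beside 1.69% of all 16866 genes tested (1.61% higher and 0.083% lower). At an unadjusted p under 0.05, 1 collagen gene was higher and 1 lower, where 854 of all genes were higher and 628 lower. The median log2 change was -0.04 over the collagen genes and -0.03 over all genes, with 10 positive and 11 negative values. By class the medians were -0.04 for 7 fibrillar, 0.07 for 4 basement membrane and -0.01 for 10 other chains. In 0 of 21 did the 4 KO replicates lie apart from the 4 rescue replicates, beside 3.11% of all genes higher and 1.4% lower.

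*Col4a1* (chr8:11198423-11312826) had the smallest p. It was at 25.7 and 16.2 RPKM in the 2 KO replicates of the exon 4 clone, at 17.8 and 15.5 RPKM in its rescue, at 18.5 and 18.1 RPKM in KO of the exon 6 clone, and at 13.2 and 11.4 RPKM in its rescue. KO was higher in all 4 numbered pairs, but the groups overlapped across clones. The log2 change was 0.42 (SE 0.15, unadjusted p = 0.0237, adjusted p = 0.421 by limma with Benjamini-Hochberg adjustment). In the exon 6 clone alone it was 0.56 (SE 0.13, adjusted p = 0.174 by limma), and in the exon 4 clone alone 0.29 (SE 0.27, adjusted p = 0.988 by limma). It was the single collagen gene higher in every pair, as were 8.96% of all genes.

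*Col4a2* (chr8:11312805-11449287), the neighbour of *Col4a1*, was at 14.0 and 9.93 RPKM in KO and 10.3 and 11.0 RPKM in rescue of the exon 4 clone, and at 16.03 and 15.9 RPKM in KO and 13.7 and 11.5 RPKM in rescue of the exon 6 clone. KO was higher in 3 of 4 pairs, and the log2 change was 0.24 (SE 0.13, adjusted p = 0.667 by limma). The other type IV chains at 1 RPKM or more, *Col4a5* and *Col4a6*, which lie head to head on the X chromosome, were higher in KO in 2 and 1 of 4 pairs. *Col4a5* stood at 5.19 and 5.19 RPKM (exon 4 KO), 4.56 and 7.50 (exon 4 rescue), 7.60 and 7.30 (exon 6 KO) and 8.19 and 7.21 RPKM (exon 6 rescue). *Col4a6* stood at 1.94 and 1.26, 1.95 and 1.894, 1.95 and 1.68, and 2.22 and 1.48 RPKM in the same order. Neither gene separated KO from rescue. *Col4a3* and *Col4a4*, the chains of the glomerular network, were under 0.1 RPKM.

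*Col5a2* (chr1:45374321-45503282), the alpha 2 chain of type V, which takes part in fibril assembly together with *Col5a1*, went the other way. It was at 8.12 and 5.98 RPKM in KO and 9.38 and 9.42 RPKM in rescue of the exon 4 clone, and at 17.4 and 17.5 RPKM in KO and 20.8 and 18.1 RPKM in rescue of the exon 6 clone. KO was lower in all 4 pairs, as in 13% of all genes, and the log2 change was -0.28 (SE 0.12, unadjusted p = 0.0497, adjusted p = 0.567 by limma). *Col5a1* was at 21.2 and 20.3 RPKM in exon 4 KO, 17.9 and 20.5 RPKM in exon 4 rescue, 18.8 and 19.0 RPKM in exon 6 KO, and 17.6 and 13.1 RPKM in exon 6 rescue. Its log2 change was 0.21 (SE 0.12, adjusted p = 0.693 by limma).

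The most abundant chains did not separate KO from rescue. *Col1a1* averaged 190 ± 85.5 RPKM in KO and 191 ± 101 RPKM in rescue (SD, n = 4 each), with a log2 change of 0.02 and a 95% interval of -0.40 to 0.44. *Col1a2* averaged 104 ± 32.5 and 104 ± 42.4 RPKM, with a log2 change of 0.04 and an interval of -0.40 to 0.47. The width of both intervals means that the fit does not show equal levels. *Col3a1*, the type III chain, was at 21.9 and 11.8 RPKM in exon 4 KO, 20.2 and 20.7 RPKM in exon 4 rescue, 22.8 and 23.2 RPKM in exon 6 KO, and 25.9 and 17.7 RPKM in exon 6 rescue. *Col18a1*, the multiplexin that yields endostatin, was at 3.57 and 2.10, 2.26 and 1.56, 2.25 and 2.08, and 2.27 and 1.55 RPKM in the same order, with a log2 change of 0.31 (SE 0.18, adjusted p = 0.696 by limma). All of these ranges overlapped between KO and rescue.

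The remaining members of at least 1 RPKM varied as follows, each in the order exon 4 KO, exon 4 rescue, exon 6 KO, exon 6 rescue. *Col16a1*, a FACIT chain, was at 20.6 and 14.7, 18.6 and 13.0, 12.8 and 14.9, and 14.7 and 12.9 RPKM. *Col8a1*, a short chain of vessel walls and corneal membranes, was at 7.69 and 6.0, 5.76 and 5.59, 4.41 and 5.35, and 6.01 and 5.29 RPKM. *Col27a1*, a fibrillar chain, was at 2.44 and 1.54, 2.91 and 1.97, 1.86 and 1.5, and 1.65 and 1.27 RPKM. Each of these 3 overlapped between KO and rescue and between clones. *Col20a1*, a FACIT chain, was at 1.04 and 0.573, 1.09 and 0.954, 1.24 and 0.979, and 1.52 and 0.946 RPKM, again with overlap. The 3 members between 0.1 and 1 RPKM ranged over the replicates from 0.188 to 0.964 RPKM (*Col11a2*), from 0.00485 to 0.649 RPKM (*Col10a1*) and from 0.0750 to 0.480 RPKM (*Col9a3*).

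No collagen gene was called for a change that differed between the clones, and neither was any of the 16866 genes (0% called, by limma; 251 genes with a positive and 434 with a negative difference at an unadjusted p under 0.05). The 1 collagen gene among the latter was *Col6a3*, the alpha 3 chain of type VI. It was at 3.81 and 4.27 RPKM in KO against 5.91 and 5.85 RPKM in rescue of the exon 4 clone, and at 7.38 and 6.70 RPKM in KO against 6.05 and 4.43 RPKM in rescue of the exon 6 clone. KO was thus lower in both pairs of the exon 4 clone and higher in both pairs of the exon 6 clone. The log2 changes were -0.49 (SE 0.17) and 0.41 (SE 0.17), and their difference was -0.90 (SE 0.23, unadjusted p = 0.00599, adjusted p = 0.997 by limma). Within clones, 0 of 22 collagen genes were called in the exon 4 clone, where 0% of 18751 genes were, and 0 of 22 in the exon 6 clone, beside 1.3% of 15301 genes. At an unadjusted p under 0.05, 1 was lower in the exon 4 clone, where 342 of all genes were, and 3 were higher in the exon 6 clone, where 1119 of all genes were.

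The clones differed from each other. Of the 21 collagen genes tested, 5 were lower in the exon 4 clone than in the exon 6 clone at an adjusted p under 0.05 by limma, beside 6.84% of all 16866 genes lower, and 0 were higher, beside 6.71% of all genes higher (13.6% in either direction). At an unadjusted p under 0.05, 9 were lower and 1 was higher, where 2268 of all 16866 genes were lower and 2943 higher. The 5 were both chains of type I, *Col5a2* of type V, *Col6a2* of type VI and *Col10a1* of type X, the last of which passed the minimum of 0.1 RPKM only through the exon 6 clone. The median log2 difference was -0.28 over the collagen genes, with 13 of 21 negative, and 0.05 over all genes. Medians by class were -0.28 (fibrillar, 3 of 7 called), -0.19 (basement membrane, 0 of 4 called) and -0.26 (others, 2 of 10 called).

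Same-numbered KO and rescue replicates deviated together, so the clones were also compared on the means of the numbered pairs, 2 against 2. In this fit with a replicate block 1 collagen gene, *Col5a2*, was called, beside 1.36% of all genes, and the log2 differences of the 5 genes lay between -1.20 and -0.57. In the 4 rescue replicates alone 0 collagen genes were called, beside 0.15% of all 17979 genes, and in the 4 KO replicates alone 1, *Col12a1*, was, beside 0.677% of all 15962 genes.

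**Figure D3:**
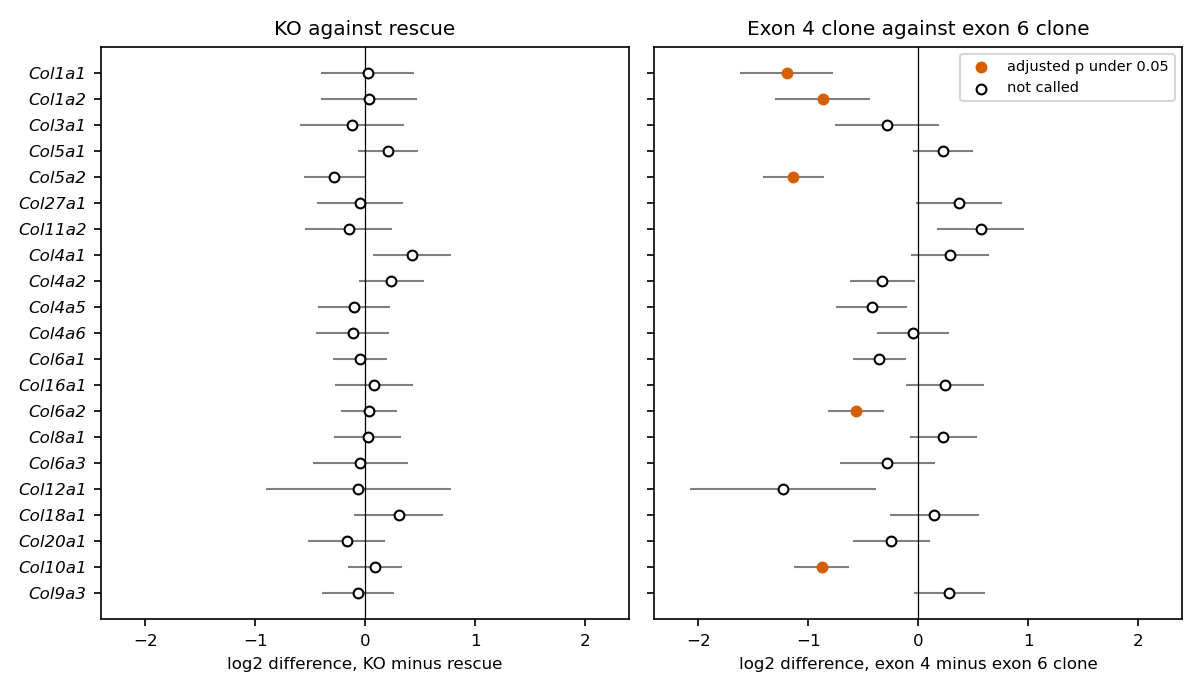
Log2 differences on the log2(RPKM + 0.5) scale of the 21 collagen genes tested, with 95% intervals from limma (8 replicates); left KO minus rescue, right exon 4 minus exon 6 clone. Filled points mark an adjusted p under 0.05: none on the left, and *Col1a1*, *Col1a2*, *Col5a2*, *Col6a2* and *Col10a1* on the right, all below 0.

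*Col1a1* was at 138 and 98.7 RPKM in KO and 122 and 104 RPKM in rescue of the exon 4 clone, against 276 and 249 RPKM in KO and 324 and 215 RPKM in rescue of the exon 6 clone. Every exon 4 replicate was below every exon 6 replicate. The means were 115 ± 17.9 and 266 ± 46.2 RPKM (SD, n = 4 each), 2.3-fold higher in the exon 6 clone, and the log2 difference was -1.20 (SE 0.18, adjusted p = 0.00528 by limma). With the replicate block the adjusted p was 0.0881. *Col1a2* was at 93.7 and 62.0, 83.4 and 56.9, 132 and 127, and 154 and 121 RPKM in the same order, again without overlap. Its means were 74.0 ± 17.4 and 133 ± 14.4 RPKM, and its log2 difference was -0.87 (SE 0.19, adjusted p = 0.0210 by limma; 0.151 with the replicate block). The call of *Col1a2* was lost without the second KO replicate of the exon 4 clone or any single replicate of the exon 6 clone, with adjusted p-values up to 0.0668 by limma.

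*Col5a2*, whose values are given above, averaged 8.22 ± 1.62 RPKM in the exon 4 clone and 18.5 ± 1.61 RPKM in the exon 6 clone, 2.24-fold higher in the latter. The log2 difference was -1.14 (SE 0.12, adjusted p = 0.00114 by limma; 0.0414 with the replicate block). *Col3a1*, which lies tail to tail with *Col5a2* on chromosome 1 with a gap of 24615 bases, overlapped between the clones (18.7 ± 4.62 and 22.4 ± 3.4 RPKM). So did *Col5a1*, the partner chain, at 19.98 ± 1.43 and 17.1 ± 2.74 RPKM.

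*Col6a2* (chr10:76595762-76623630), the alpha 2 chain of type VI, was at 6.83 and 6.87 RPKM in KO and 7.37 and 6.53 RPKM in rescue of the exon 4 clone, and at 10.7 and 10.8 RPKM in KO and 11.7 and 8.71 RPKM in rescue of the exon 6 clone. The groups did not overlap, and the log2 difference was -0.56 (SE 0.11, adjusted p = 0.0139 by limma; 0.106 with the replicate block). Without either KO replicate of the exon 6 clone the call was lost (adjusted p = 0.0563 and 0.0562 by limma). *Col6a1* (chr10:76708792-76726168), the alpha 1 chain, lies 85162 bases away on the same strand and was at 24.5 and 28.4, 28.3 and 26.3, 33.6 and 34.1, and 37.8 and 32.3 RPKM in the same order. It too did not overlap between the clones, with a log2 difference of -0.35 (SE 0.11) that was not called (adjusted p = 0.0627 by limma). Of the 21 collagen genes tested, 6 lay wholly lower in the exon 4 clone, beside 9.31% of all genes tested, and 0 wholly higher, beside 11.1%. *Col9a2*, below the minimum and not tested, lay wholly higher there, with at least 0.0686 RPKM in every exon 4 replicate and at most 0.0593 RPKM in every exon 6 replicate.

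*Col10a1* (chr10:34389981-34397085), the short chain known from hypertrophic cartilage, was close to 0 in the exon 4 clone: 0.00485 and 0.0714 RPKM in KO and 0.0411 and 0.0381 RPKM in rescue. In the exon 6 clone it was at 0.649 and 0.471 RPKM in KO and 0.430 and 0.425 RPKM in rescue. The means were 0.0388 ± 0.0272 and 0.494 ± 0.106 RPKM, so the gene passed the minimum of 0.1 RPKM only through the exon 6 clone, and a difference between the clones was to some extent built into its being tested. The log2 difference was -0.88 on the log2(RPKM + 0.5) scale (SE 0.11, adjusted p = 0.0020 by limma). With no minimum level the adjusted p was 0.0137 by limma, and with the replicate block 0.0584. The gene lies within *Nt5dc1* on the opposite strand and shares 18 exon bases with it, and whether reads were counted by strand is not stated. *Nt5dc1* was at 0.722 ± 0.220 RPKM in the exon 4 clone and 0.512 ± 0.131 RPKM in the exon 6 clone (log2 difference 0.26, adjusted p = 0.269 by limma). Of the cartilage markers *Sox9* was higher in the exon 4 clone (9.07 ± 0.990 against 5.71 ± 0.486 RPKM), 3 of the 5 were under 0.1 RPKM, and the part of other cell types in the *Col10a1* difference was not tested.

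Several further chains came near the threshold. *Col12a1*, a FACIT chain, was at 0.984 and 1.26 RPKM in KO and 0.647 and 3.84 RPKM in rescue of the exon 4 clone, and at 4.66 and 4.35 RPKM in KO and 3.14 and 3.80 RPKM in rescue of the exon 6 clone. The second rescue replicate of the exon 4 clone lay among the exon 6 values. The log2 difference was -1.23 (SE 0.37, adjusted p = 0.0615 by limma), and without that replicate -1.69 (adjusted p = 0.000547 by limma). *Col4a5* had a log2 difference of -0.42 (SE 0.14, adjusted p = 0.0867 by limma), and without the same replicate it was called (adjusted p = 0.0154). *Col11a2*, a minor fibrillar chain, had the highest log2 difference, 0.57 (SE 0.17, adjusted p = 0.0646 by limma). Without the second KO replicate of the exon 4 clone, *Col11a2* and *Col4a1* were called higher in the exon 4 clone.

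Ratios of partner chains cancel the scaling of a library. *Col5a1* to *Col5a2* was 2.52 ± 0.647 in the exon 4 clone (range 1.91 to 3.39) and 0.935 ± 0.180 in the exon 6 clone (0.726 to 1.09; SD, n = 4 each). *Col4a1* to *Col4a2* was 1.66 ± 0.181 and 1.06 ± 0.0977, with ranges of 1.42 to 1.85 and 0.964 to 1.16. Neither ratio overlapped between the clones. *Col1a1* to *Col1a2* was 1.59 ± 0.168 and 1.99 ± 0.152, and *Col6a1* to *Col6a2* was 3.90 ± 0.237 and 3.31 ± 0.272, both with overlap. Within each clone, *Col5a1* to *Col5a2* was higher in every KO than in every rescue library. In the exon 4 clone it was 2.62 and 3.39 against 1.91 and 2.17. In the exon 6 clone it was 1.05 to 1.13 against 0.640 to 0.845. There, *Col4a1* to *Col4a2* was also higher in KO (1.13 to 1.16 against 0.953 to 1.04). *Col6a1* to *Col6a2* was lower in KO there (3.12 to 3.18 against 3.24 to 4.05). Over both clones, KO and rescue overlapped in every ratio. These ratios are given as a description. Gene lengths enter each RPKM, so a ratio is not a ratio of molecules beyond the lengths used.

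**Figure D4:**
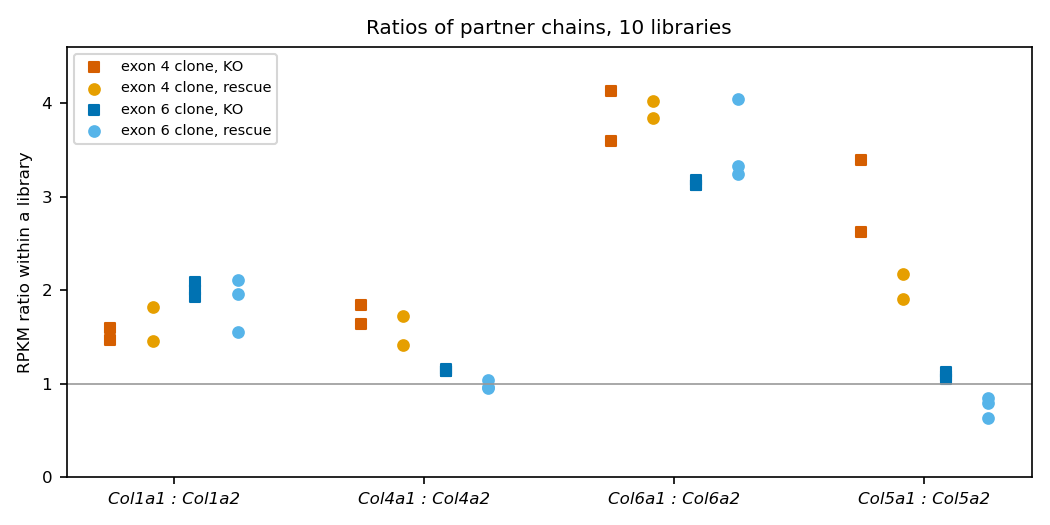
RPKM ratios of partner chains within each of the 10 libraries; squares are KO and circles rescue, orange shades the exon 4 clone and blue shades the exon 6 clone, and the grey line marks equal levels. The *Col5a1* to *Col5a2* ratio was 1.91 or more in all exon 4 libraries and 1.13 or less in all exon 6 libraries.

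The technical pair of the exon 6 rescue bears on these values. Of the 18 collagen genes of at least 1 RPKM, 16 were lower in sample 3 than in sample 2, with a median ratio of 0.824 (range 0.505 to 1.07). The median over 7545 genes was 0.998, which the rescaling itself holds near 1, and the spread over all genes was not examined. *Col1a1* was at 261 RPKM in sample 2 and 169 RPKM in sample 3, and *Col6a3* at 5.88 and 2.97 RPKM. In the KO pair 6 of 18 were lower in sample 3, with a median ratio of 1.05. With sample 2 alone or sample 3 alone, 5 collagen genes were still called lower in the exon 4 clone, beside 913 of 17188 and 1019 of 16537 genes.

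Genes that act on collagen were counted from lists of their functions. Between KO and rescue, 0 of 52 genes tested in 7 lists were called by limma, beside 1.69% of all 16866 genes. At an unadjusted p under 0.05 by limma, 0 were higher and 4 lower, where 854 of all genes were higher and 628 lower. Between the clones, 5 of 14 genes of chain synthesis and folding were lower in the exon 4 clone and 0 higher, with a median log2 difference of -0.34 and 13 of 14 negative, where 6.84% of all genes were lower, 6.71% were higher and the median was 0.05. These shares over all genes are the background of every other list too. They were *P3h1*, *P3h3* and *P3h4*, of the prolyl 3-hydroxylase family, *P4ha1*, a prolyl 4-hydroxylase subunit, and *Serpinh1*, the collagen chaperone HSP47. *P3h1* was at 1.38 ± 0.276 and 2.50 ± 0.210 RPKM in the exon 4 and exon 6 clone (log2 difference -0.68, adjusted p = 0.00606 by limma), *P3h4* at 4.32 ± 0.871 and 7.26 ± 1.08 RPKM, and *P3h3* at 2.01 ± 0.503 and 3.29 ± 0.282 RPKM.

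Of 4 propeptide genes, *Adamts2* (0.370 ± 0.116 and 1.13 ± 0.347 RPKM) and *Adamts14* (0.413 ± 0.214 and 0.976 ± 0.313 RPKM), both proteases of the amino-terminal propeptide, were lower in the exon 4 clone. *Bmp1* of the same list went the other way (5.35 ± 1.87 and 3.18 ± 0.468 RPKM). It was not called but had an unadjusted p under 0.05 by limma, and 2 of the 4 log2 differences were negative. Of 4 cross-linking genes *Loxl1*, a lysyl oxidase, was lower (12.04 ± 2.86 and 22.8 ± 5.23 RPKM). Degradation genes went both ways: *Mmp2*, a gelatinase, was higher in the exon 4 clone (109 ± 25.1 and 46.9 ± 1.41 RPKM; log2 difference 1.18, adjusted p = 0.00240 by limma), and *Timp3*, an inhibitor of such proteases, was lower (1.56 ± 0.287 and 3.06 ± 0.207 RPKM). None of 5 receptor genes was called or had an unadjusted p under 0.05 by limma. With the replicate block none of the genes in these 5 lists was called.

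**Figure D5:**
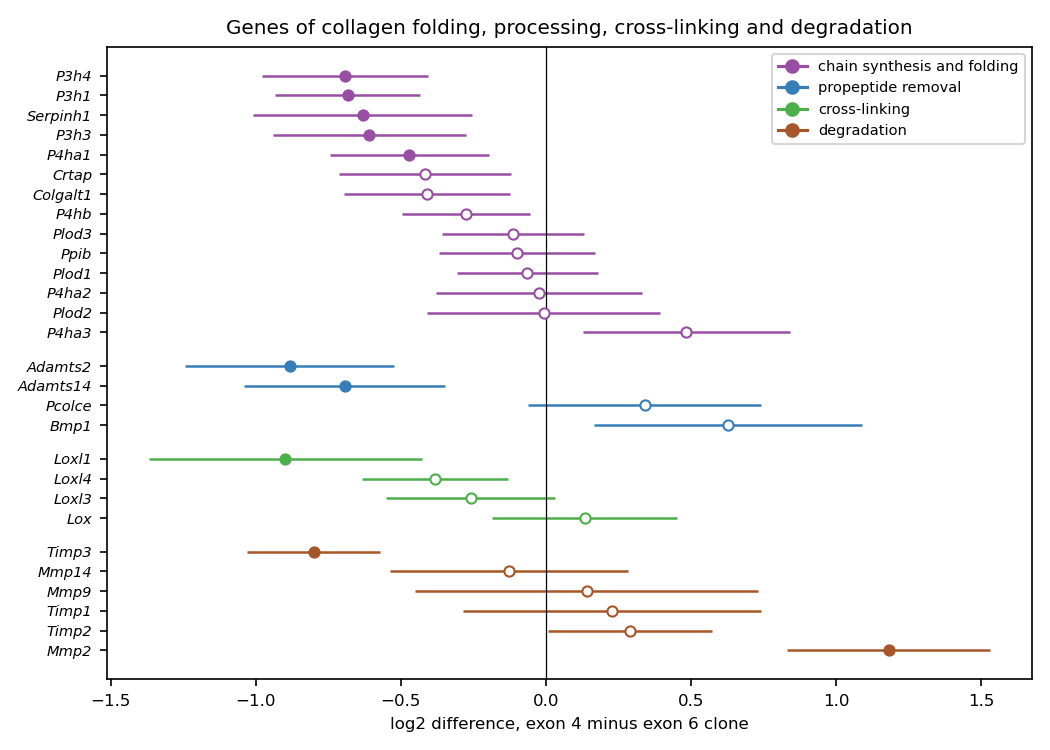
Log2 difference, exon 4 minus exon 6 clone, with 95% intervals from limma, of genes of chain synthesis and folding, propeptide removal, cross-linking and degradation (8 replicates); filled points mark an adjusted p under 0.05. *Mmp2* was the one filled point above 0, and 9 filled points lay below 0.

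Among 10 fibril-associated genes, 3 were higher and 3 lower in the exon 4 clone, and 1 of them was called with the replicate block. Of those lower, *Fmod* (0.0130 and 0.276 RPKM on average) and *Postn* (0.0742 and 0.326 RPKM) passed the minimum only through the exon 6 clone. *Fbn1*, which encodes fibrillin, was at 3.36 ± 1.33 and 0.397 ± 0.0470 RPKM and was the one called with the replicate block (adjusted p = 0.0314 by limma). *Ogn*, a small proteoglycan, was at 9.14 ± 2.18 and 3.38 ± 1.61 RPKM, and *Thbs1*, thrombospondin, at 14.3 ± 2.34 and 28.7 ± 4.81 RPKM. *Dcn* was also called higher in the exon 4 clone, at 38.6 ± 37.6 and 3.97 ± 1.88 RPKM. Among 9 basement membrane partners of type IV, 2 were higher and 3 lower, and 0 were called with the replicate block. *Nid1*, a linker of laminin to type IV collagen, was at 19.8 ± 5.42 and 9.48 ± 1.77 RPKM, its relative *Nid2* at 0.342 ± 0.276 and 1.13 ± 0.279 RPKM, and *Agrn* at 1.78 ± 0.286 and 3.24 ± 0.388 RPKM. Of 7 fibroblast markers tested, 2 were higher and 1 lower in the exon 4 clone, with a median log2 difference of -0.01, and 1, *Thy1*, was called with the replicate block. *Thy1* was at 1.14 ± 0.539 and 8.53 ± 0.753 RPKM, *Pdgfrb* at 6.69 ± 1.36 and 3.33 ± 0.254 RPKM, and *Pdgfra* at 39.7 ± 6.55 and 25.3 ± 6.01 RPKM. Beside them, *Tagln* of the contractile list was lower. *Acta2* of the same list went the other way (2.91 and 1.88 RPKM on average). It was not called but had an unadjusted p under 0.05 by limma, and its replicates overlapped between the clones. *Cdh1* of the epithelial list, which passed the minimum only through the exon 4 clone, was at 0.342 ± 0.106 and 0.0566 ± 0.0321 RPKM. The other 4 epithelial markers averaged under 0.1 RPKM. The part of these markers in the collagen differences was not tested.

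The 23 collagen genes under 0.1 RPKM were *Col2a1*, *Col5a3*, *Col11a1* and *Col24a1* (fibrillar), *Col4a3* and *Col4a4* (basement membrane), *Col6a4*, *Col6a5* and *Col6a6* (beaded filament), *Col9a1*, *Col9a2*, *Col14a1*, *Col19a1* and *Col22a1* (FACIT), *Col8a2* (short chain), *Col13a1*, *Col17a1*, *Col23a1* and *Col25a1* (transmembrane), *Col15a1* (multiplexin), and *Col7a1*, *Col26a1* and *Col28a1*. Their means lay between 0.0111 and 0.096 RPKM. Together they summed to 0.397 to 2.20 RPKM in a library, highest in the second rescue library of the exon 4 clone, which also had the fewest entries at 0 (7920). *Col6a5* was listed at 0 in 2 libraries, and *Col11a1*, *Col13a1* and *Col15a1* in 1 each. *Col2a1*, the chain that defines cartilage, was at 0.0454 RPKM. They were not tested in the fits over both clones.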

How the data were processed

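RNA of 10 libraries of serum-starved NIH3T3 cells was sequenced after rRNA depletion. The authors trimmed reads with cutadapt, aligned them to mm10 with segemehl, counted them per gene with rnacounter and deposited RPKM values. The labels also name Picard 1.89. Counting by strand and gene lengths are not given in the sources used here. Low values were whole multiples of 1 read in 19.3 to 34.4% of cases (tolerance 0.05 reads), so reads were not recovered and a count test was not run.

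Libraries were rescaled by the median of ratios over 8523 genes of at least 1 RPKM. Technical replicates were averaged. Symbols came from GENCODE M21 (44585 of 45232 entries matched), and 0 columns were left unmapped. Genes averaging at least 0.1 RPKM in the replicates compared were tested with limma 3.58.1 in R 4.3.3 (trend, log2(RPKM + 0.5), Benjamini-Hochberg over all genes, called under 0.05), with clone or genotype as covariate. The fit was tested on simulated data in which replicates varied independently. The correlation of same-numbered replicates given below was not part of that simulation. The labels and the study call replicates 1 and 2 biological, and p-values measure the spread between these samples. Deviations from group means correlated between same-numbered KO and rescue replicates (exon 4 clone r = 0.477, exon 6 clone r = 0.360, 7550 genes), so the numbers were treated as pairs, and a fit with a replicate block was run. Collagen members of at least 1 RPKM are given with all replicates, those of 0.1 to 1 RPKM as ranges and the rest by name; of other lists, at most the 3 called genes with the smallest adjusted p get values. *Sox9*, *Cdh1*, *Tagln*, *Acta2* and *Nt5dc1* were added as marker or overlap checks. Values of *Bmp1*, *Dcn*, *Fmod* and *Postn* were given besides. The members and lists were chosen with earlier results of these data known. Tried alternatives were pseudocounts of 0.1 and 1, no minimum and a minimum of 1 RPKM, RPKM as deposited, quantile normalization, no trend, single technical replicates, other covariates and leaving out each replicate.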

Additional observations from a re-analysis of the deposited data

Results flagged for a closer look

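Among 72 groups of 4 replicates of collagen genes, 4 held a replicate whose gap to its nearest neighbour exceeded Dixon's critical value. Chance flags about 1 in 20 groups where groups are independent and each is drawn from a single population. Here each replicate falls in a genotype group and in a clone group, and the KO and rescue groups pool both clones. That rate is therefore only a rough guide. *Col3a1* was at 11.8 RPKM in the second KO replicate of the exon 4 clone, the lowest of the 4 KO replicates, with the next at 21.9 RPKM. *Col4a6* was at 1.26 RPKM in that same replicate, the lowest of the 4 exon 4 replicates, with the next at 1.894 RPKM. *Col18a1* was at 3.57 RPKM in the first KO replicate of the exon 4 clone, the highest of the 4 KO replicates, with the next at 2.25 RPKM. *Col6a3* was at 4.43 RPKM in the second rescue replicate of the exon 6 clone, the lowest of the 4 rescue replicates, with the next at 5.85 RPKM. That replicate is the mean of the technical pair at 5.88 and 2.97 RPKM.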

How the results depend on the processing

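Between KO and rescue, the number of collagen genes called was 0 over both clones under every alternative run. In the exon 6 clone alone, 21 of 25 were called higher with RPKM as deposited, beside 10040 of all 16361 genes. On that scale the median of all genes was itself shifted by 0.69 (log2) in that clone. Over both clones the shift was 0.64, and 23 of 23 collagen genes tested were positive, with 0 called. Between the clones the shift was -0.51. Between the clones, the number called lower was 1 with the replicate block, 0 in rescue replicates only and 1 in KO replicates only. In these fits 125 of 16866, 14 of 17979 and 60 of 15962 of all genes were lower. When single replicates were left out, the number ranged from 3 of 21 to 7 of 21. The 3 came without either KO replicate of the exon 6 clone, where 528 of 17175 and 534 of 17211 genes were lower. The 7 came without the second rescue replicate of the exon 4 clone, where 879 of 16014 genes were. The number called higher was 1 with a pseudocount of 0.1 and 1 with sample 3 only, where 1192 of 16866 and 1078 of 16537 genes were. With single replicates left out it was 0 to 2. The 2 came without the second KO replicate of the exon 4 clone, where 815 of 16556 genes were higher. With a minimum of 1 RPKM, where fewer genes are tested, *Col12a1* (adjusted p = 0.0374) and *Col6a1* (0.0499) were also called lower. The replicate block changed no call between KO and rescue. *Col1a2* was not called between the clones with no minimum level (adjusted p = 0.0735) or quantile normalization (0.0853). Directions turned for values near 0: between KO and rescue, *Col1a1* was -0.053 and *Col1a2* -0.012 with sample 2 only, and with single replicates left out they ranged from -0.089 to 0.15 and from -0.10 to 0.13. As deposited, *Col5a2* was 0.73 between KO and rescue, *Col4a1* -0.65 between the clones and *Col6a3* 0.44 in the exon 4 clone. With single replicates left out, the difference of the *Col12a1* change between clones ranged from -1.76 to 0.16 and the *Col4a1* change in the exon 4 clone from -0.033 to 0.62. The cause of these turns was not tested. Unknown depth limits what the low members can show.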
